A study of Mus musculus with 21 samples.

Results

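Oxidative phosphorylation genes, those for the subunits of complexes I to V of mitochondrial energy metabolism, were followed across 21 RNA sequencing libraries of mouse peritoneal macrophages. They were chosen by gene symbol among protein-coding genes: names starting with Nduf, Uqcr, Cox4 to Cox8 or Atp5, Sdha to Sdhd, and the protein genes of the mitochondrial genome. The rule matched 104 of 23545 genes, and 100 of these had a mean of at least 1 TPM (a transcript's share of its library after correction for length), among 11764 genes that did. The 4 below this minimum were the isoform genes Cox4i2, Cox7b2, Cox8b and Ndufa4l2. The 100 were the 13 mitochondrial genes, 78 nuclear subunit genes, 8 assembly factors of complex I named Ndufaf, and Atp5s, the gene of coupling factor B. Complex I had 35 nuclear subunits, complex II 4, complex III 8, complex IV 15 and complex V 16.

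The cells were CD11b+ cells, a surface marker of macrophages and other myeloid cells, washed from the peritoneal cavity of C57BL/6 mice that had received no eliciting agent, and plated overnight. There were 6 libraries labelled Lum-/- (lumican knockout), 6 labelled Bgn-/-, from mice given as Bgn-/0, -/- (biglycan knockout), and 9 labelled wild type, and the labels give 10 mice without tying a library to an animal. Stimuli lasted 6 h and were 100 ng/mL LPS, which TLR4 recognizes, or 1 µM CpG DNA, which TLR9 recognizes. The recombinant proteins lumican and biglycan, small proteoglycans of the extracellular matrix, went on at 10 µg/mL 1 h before the stimulus, and the labels state no dose or time where protein was given alone. Lum-/- cells received lumican or no protein, Bgn-/- cells biglycan or no protein, and wild-type cells lumican, biglycan or no protein, each with LPS, CpG or no stimulus. Every combination had 1 library, so a genotype cannot be told apart from its cell preparation. The p-values rest on the spread that each fit leaves between libraries of different combinations, and not on replicate wells or animals.

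The macrophage markers Adgre1, at 542 to 949 TPM, and Csf1r, at 151 to 1264 TPM, were high in all 21 libraries. So were Lyz2, at 9666 to 38548 TPM, Cd68, at 624 to 2261 TPM, and Itgam, at 287 to 644 TPM. Others of the list were lower: Timd4 at 53.6 to 423 TPM, Mertk at 23.8 to 52.8, Icam2 at 6.17 to 44.6 and Gata6 at 2.22 to 10.6. Markers of other cell types were also present. B cell markers included Ighm at 259 to 612 TPM and Cd79a at 32.1 to 106 TPM, and their list of 5 summed to 380 to 559 TPM under LPS, 486 to 747 TPM under CpG and 370 to 865 TPM without stimulus. Of the 5 neutrophil markers S100a8, at 106 to 387 TPM, and Mmp8, at 24.7 to 281 TPM, were present while S100a9 and Ly6g never exceeded 1 TPM, and the list summed to 343 to 412 TPM under LPS, 215 to 269 TPM under CpG and 239 to 402 TPM without stimulus. The 5 T cell markers summed to 2.98 to 21.7 TPM, and the 4 eosinophil markers to at most 0.684 TPM. The part of these cells in the results was not tested. Lum did not follow the labels, at 0.823 to 14.1 TPM in libraries labelled Lum-/-, 0 to 1.1 in those labelled Bgn-/- and 0 to 1.4 in wild-type libraries, nor did Bgn, at 0 to 3.49 TPM in libraries labelled Bgn-/- and 0.327 to 1.52 in wild-type libraries. Genotypes are therefore given below as labels. A pair of libraries, untreated cells labelled Lum-/- and cells labelled Bgn-/- with biglycan alone, differed from each other by less than the sampling noise, and had an estimated 2.36 and 2.39 M reads against 12.9 to 20.6 M in the other 19. The untreated wild-type library stood apart in mast cell markers, summed to 3.54 TPM against 64.7 to 116 TPM in the other 8 wild-type libraries. Counts of members called that rest on these 3 libraries are also given without them. The log2 differences of LPS to CpG rest on none of the 3, which enter their standard errors, p-values and scaling.

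Oxidative phosphorylation passes electrons from NADH through complex I, or from succinate through complex II, to ubiquinone, complex III, cytochrome c and complex IV, which reduces oxygen, and complex V uses the resulting proton gradient to make ATP. Complex II is encoded wholly in the nucleus, and the other complexes combine nuclear subunits with a core encoded by mitochondrial DNA. In macrophages, inflammatory stimuli such as LPS are known for a shift towards glycolysis with altered use of the respiratory chain and accumulation of succinate and itaconate.

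As a share of the library, nuclear subunit transcripts were lower under LPS than under CpG or no stimulus. Their summed level had its lowest, median and highest values at 6453, 7318 and 7749 TPM in the 7 LPS libraries, at 11440, 12860 and 13436 TPM in the 7 CpG libraries, and at 12728, 13643 and 13779 TPM in the 7 libraries without stimulus. The LPS libraries lay wholly below both other groups. The 13 mitochondrial genes summed to 23907, 28293 and 32987 TPM under LPS, to 32038, 35690 and 49616 TPM under CpG, and to 37556, 43124 and 51366 TPM without stimulus, and here the highest LPS library passed the lowest CpG library. In percent of the library, the nuclear subunits took 0.645 to 0.775% under LPS, 1.14 to 1.34% under CpG and 1.27 to 1.38% without stimulus.

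**Figure D1:**
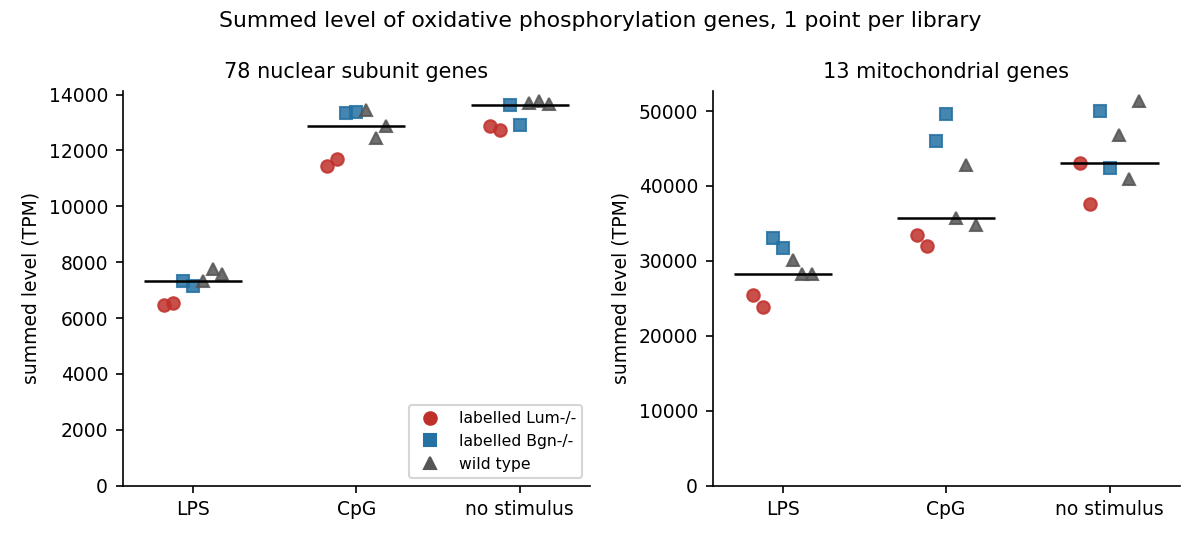
Summed TPM of the 78 nuclear subunit genes (left) and the 13 mitochondrial genes (right) by stimulus, 1 point per library, coloured by genotype label, with the median as a line. As TPM, the 7 LPS libraries lie below all others for nuclear genes (6453 to 7749 TPM); after median-of-ratios scaling the nuclear medians become 10432 under LPS, 10408 under CpG and 10739 without stimulus.

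TPM is a share, and the most abundant genes took a larger share of the LPS libraries. The 20 most abundant genes took 31.9 to 35.0% of the LPS libraries, 25.7 to 29.9% of the CpG libraries and 24.1 to 28.9% of those without stimulus. Saa3, an acute-phase serum amyloid gene, had 88638 to 125656 TPM under LPS, 62374 to 111728 under CpG and 49083 to 94125 without stimulus. The median tested gene had a log2 difference of -0.70 between LPS and CpG, and a scaling of the libraries by the median of their gene ratios moved this to -0.01. The part of the abundant genes in this shift was not tested. The directions of single genes depend on this choice, so both values are given below, the second as scaled. In bulk RNA, fewer cells and less RNA per cell cannot be told apart.

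Set against CpG, LPS libraries had 99 of the 100 members lower and 0 higher as TPM (limma on log2(TPM + 1), Benjamini-Hochberg adjusted p under 0.05), where 74.1% of all 11764 genes were lower and 11.6% higher. After scaling, 45 were lower and 26 higher, where 37.8% of all genes were lower and 36.8% higher. Without the 3 libraries the counts were again 99 and 0 as TPM, and 50 and 28 scaled. The shares of all genes in these fits are not given, so these counts are not set against them. Over all 21 libraries, the scaled counts lay closer to those of all genes than the counts as TPM. The median log2 difference of the members was -0.90 as TPM and -0.13 scaled, beside -0.70 and -0.01 for all genes tested. In single libraries, all 7 LPS values lay below all 7 CpG values for 84 of 87 nuclear members and for 3 of 13 mitochondrial genes, and this held for 62.2% of all genes. The summed level of the macrophage markers moved along, carried by Lyz2. Their sum was 11577 to 15364 TPM under LPS, 32714 to 37678 TPM under CpG and 29642 to 44088 TPM without stimulus. Their part in the result was not tested.

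Transcription of nuclear subunit genes is known to use NRF1, ETS proteins such as GABPA, and YY1. The promoters of these genes were searched for the cores of these factors. Each window held 300 bases from RefSeq (GRCm38.p6), 250 before the gene's start and 50 after, and windows were found for 64 of the 78 nuclear subunit genes. The letters GCGCANGCG (NRF1) stood on either strand in 31.2% of the 64, against 16.1% of 8807 tested genes and 6.25% of all 32851 windows. The letters CCGGAAG (ETS) stood in 25% of the 64, against 21.8% of tested genes and 8.86% of all windows, and AANATGGCG (YY1) in 15.6%, against 6.45% and 2.38%. At least 1 of these was held by 59.4% of the 64 subunit genes, 37.9% of tested genes and 15.4% of all windows. A gene counted if any of its windows matched, so shares of genes and of windows are unlike measures. Of all 27025 genes with a window, 7.03% held the NRF1 letters, 9.93% the ETS letters, 2.76% the YY1 letters and 17.2% at least 1. The median log2 difference between LPS and CpG was -0.98 in genes with the NRF1 letters and -0.96 without, -1.06 with the ETS letters and -0.95 without, and -0.88 with the YY1 letters and -0.96 without. After scaling these medians were -0.20 and -0.19 for NRF1, -0.27 and -0.18 for ETS, and -0.095 and -0.20 for YY1. A match is a string of letters and not a bound site. Windows of 5 genes from both ends of the response are shown, with matches in capitals. All 5 hold at least 1 match, against 59.4% of the 64, so they do not stand for all subunit genes. Other genes at these ends, such as Ndufv3 and Uqcrq, are not shown.

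The first 2 belong to the genes with the lowest difference in their complexes. Sdhd, for a membrane anchor of complex II, has its window on the minus strand at chr9:50603800-50604099, with NRF1 and ETS letters.
Sdhd: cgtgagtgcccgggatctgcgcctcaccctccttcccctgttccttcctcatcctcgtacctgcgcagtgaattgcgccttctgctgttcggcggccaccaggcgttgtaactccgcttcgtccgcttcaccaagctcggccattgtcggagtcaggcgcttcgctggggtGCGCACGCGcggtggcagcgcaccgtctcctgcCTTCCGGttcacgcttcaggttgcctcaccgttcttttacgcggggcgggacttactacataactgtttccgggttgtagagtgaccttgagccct
Uqcr11, for a small subunit of complex III, lies on the minus strand at chr10:80406772-80407071, with the same kinds of letters.
Uqcr11: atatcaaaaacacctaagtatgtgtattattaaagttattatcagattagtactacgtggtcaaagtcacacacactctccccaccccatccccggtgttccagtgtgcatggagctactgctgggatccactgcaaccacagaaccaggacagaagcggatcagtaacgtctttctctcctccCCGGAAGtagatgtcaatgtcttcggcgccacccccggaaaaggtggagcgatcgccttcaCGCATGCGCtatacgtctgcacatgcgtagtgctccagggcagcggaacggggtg
The other 3 belong to the genes at the opposite end of theirs. Ndufs4, for a subunit in the NADH-oxidizing arm of complex I, lies on the minus strand at chr13:114388045-114388344, with the YY1 letters.
Ndufs4: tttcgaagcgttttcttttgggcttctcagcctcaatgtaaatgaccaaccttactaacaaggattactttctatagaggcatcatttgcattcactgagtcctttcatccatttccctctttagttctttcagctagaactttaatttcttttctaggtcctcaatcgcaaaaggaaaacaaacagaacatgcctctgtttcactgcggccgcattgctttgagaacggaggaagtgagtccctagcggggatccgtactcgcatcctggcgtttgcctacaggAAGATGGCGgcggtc
Atp5b, for the catalytic beta subunit of ATP synthase, lies on the plus strand at chr10:128083057-128083356, with the YY1 letters on the reverse strand.
Atp5b: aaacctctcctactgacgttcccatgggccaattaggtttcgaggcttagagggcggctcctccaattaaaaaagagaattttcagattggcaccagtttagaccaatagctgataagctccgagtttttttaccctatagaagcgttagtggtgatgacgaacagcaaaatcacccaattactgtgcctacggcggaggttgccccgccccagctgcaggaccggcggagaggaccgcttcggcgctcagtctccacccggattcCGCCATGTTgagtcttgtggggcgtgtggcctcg
Cox6a1, for a nuclear subunit of complex IV, lies on the minus strand at chr5:115348909-115349208 and has 4 matches, to NRF1 and ETS letters, a pair of them overlapping.
Cox6a1: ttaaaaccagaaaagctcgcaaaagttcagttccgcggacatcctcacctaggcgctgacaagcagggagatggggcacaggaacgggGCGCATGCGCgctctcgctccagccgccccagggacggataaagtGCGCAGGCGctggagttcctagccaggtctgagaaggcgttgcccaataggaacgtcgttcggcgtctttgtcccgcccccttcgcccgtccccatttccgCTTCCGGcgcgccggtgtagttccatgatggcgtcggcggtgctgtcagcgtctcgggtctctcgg

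Complex I, NADH dehydrogenase, had all 35 nuclear subunits lower under LPS than under CpG as TPM, at a median of -0.98, and 22 lower and 1 higher after scaling. Ndufv3, a small subunit of the flavoprotein part, had 17.4, 21.1 and 24.4 TPM (lowest, median and highest) under LPS, 63.3, 71.7 and 81.9 TPM under CpG and 67.0, 81.1 and 97.5 TPM without stimulus. The LPS libraries lay far below the others, with a log2 difference to CpG of -1.70 ± 0.08 (SE; limma, adjusted p = 2.51e-11; -0.93 scaled). Ndufs7 and Ndufb10 followed, both at -1.45 as TPM. At the other end, Ndufs4, whose promoter is shown above, had 55.8, 65.5 and 74.5 TPM under LPS, 75.2, 89.6 and 100 TPM under CpG and 70.1, 76.6 and 83.8 TPM without stimulus. Its difference of LPS to CpG was -0.39 ± 0.06 as TPM (limma, adjusted p = 3.78e-05) but 0.40 after scaling, the only nuclear complex I subunit called higher there, and -0.07 after quantile normalization.

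The 8 complex I assembly factors build the complex and are not part of it. Their median, -1.37 as TPM and -0.73 scaled, lay below that of the nuclear or mitochondrial subunits of each complex. Of the 8, 8 were called lower as TPM and 7 after scaling. Ndufaf7, a mitochondrial methyltransferase, had 0.567, 1.28 and 1.49 TPM under LPS, 8.45, 12.4 and 17.0 TPM under CpG and 12.1, 15.7 and 20.9 TPM without stimulus. Ndufaf4 had 1.11, 1.67 and 2.60 TPM under LPS, 11.1, 13.4 and 14.6 TPM under CpG and 10.0, 10.9 and 13.8 TPM without stimulus. Neither gene's LPS values came near the other groups, and the log2 differences to CpG were -2.58 and -2.37 as TPM, -2.04 and -1.78 scaled. Atp5s, for factor B, was also lower, at -1.50 as TPM and -0.97 scaled.

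Complex II, succinate dehydrogenase, links the respiratory chain to the citric acid cycle and had all 4 subunits lower under LPS than under CpG as TPM, by unequal amounts. Sdhd, a membrane anchor on chromosome 9 (50596357 to 50603812), had 37.9, 47.7 and 55.8 TPM under LPS, 114, 130 and 141 TPM under CpG and 148, 157 and 174 TPM without stimulus. Sdhb, the iron-sulfur subunit, had 65.4, 71.4 and 78.2 TPM under LPS, 144, 168 and 174 TPM under CpG and 178, 194 and 239 TPM without stimulus. For both genes the 3 groups did not overlap, and the differences of LPS to CpG, -1.45 ± 0.06 for Sdhd and -1.19 ± 0.05 for Sdhb (limma, adjusted p = 6.81e-12 and 6.78e-12), stayed called after scaling at -0.67 and -0.40. Sdha, the flavoprotein that oxidizes succinate, had 51.3, 62.2 and 70.2 TPM under LPS, 102, 112 and 130 TPM under CpG and 114, 121 and 135 TPM without stimulus, with a difference to CpG of -0.88 as TPM and -0.09 scaled, no longer called. Sdhc, the other anchor, had 46.4, 52.8 and 58.6 TPM under LPS, 81.2, 89.1 and 101 TPM under CpG and 86.2, 103 and 165 TPM without stimulus, with -0.73 as TPM and 0.05 scaled, not called.

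Complex III, which passes electrons from ubiquinol to cytochrome c, had all 8 nuclear subunits lower as TPM, and 3 lower and 5 higher after scaling. The core proteins Uqcrc1 and Uqcrc2 and the Rieske protein Uqcrfs1 had a median of -0.49 as TPM, and all 3 were called higher after scaling. Of the 5 small subunits, Uqcr11, Uqcr10 and Uqcrh stayed lower after scaling and Uqcrb and Uqcrq were higher there. Uqcr11 had 43.2, 52.5 and 64.7 TPM under LPS, 128, 148 and 168 TPM under CpG and 145, 167 and 202 TPM without stimulus, and its log2 difference to CpG was -1.44 ± 0.07 (limma, adjusted p = 4.95e-11; -0.66 scaled). Uqcrq had 167, 179 and 208 TPM under LPS, 212, 223 and 248 TPM under CpG and 174, 192 and 208 TPM without stimulus, and its difference to CpG was -0.29 ± 0.06 as TPM (limma, adjusted p = 0.000282) and 0.50 scaled. The LPS and unstimulated libraries overlapped for Uqcrq and were far apart for Uqcr11, although both proteins are small parts of the same complex.

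Complex IV, cytochrome c oxidase, is known for paired isoform genes, one broad and one of muscle or another tissue. The broad forms dominated: Cox6a1 had 229, 257 and 264 TPM under LPS, 320, 347 and 377 TPM under CpG and 361, 389 and 411 TPM without stimulus, with a difference of LPS to CpG of -0.47 as TPM and 0.32 scaled. Cox4i1, a large regulatory subunit, differed by -0.56 as TPM and 0.23 scaled, and Cox7a2 by -0.57 and 0.22. Cox6b1 and Cox8a, at -0.80 and -0.78 as TPM, were not called after scaling, at -0.01 and 0.0071. Cox6a2, the muscle form of subunit VIa, was low and went its own way, with 6.13, 9.56 and 12.8 TPM under LPS, 14.7, 16.6 and 19.0 TPM under CpG and 4.41, 8.57 and 11.8 TPM without stimulus. All 7 CpG libraries lay above all others, and the difference of LPS to CpG was -0.75 as TPM, -0.02 scaled and 0.05 after quantile normalization.

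Cox7a1, the muscle form of subunit VIIa, had 0.566, 0.80 and 2.17 TPM under LPS, 0.949, 2.93 and 3.41 TPM under CpG and 1.85, 2.76 and 3.65 TPM without stimulus, and was called lower as TPM at -0.77 (limma, adjusted p = 0.0026) but not after scaling, at -0.31. The testis form Cox6b2 was listed at 0, 0, 0, 0.373, 0.458, 0.592 and 1.06 TPM in the LPS libraries and at 0.879, 1.06, 1.08, 2.14, 2.40, 2.84 and 3.56 TPM in the CpG libraries, near the lower limit of the measurement. Among the accessory proteins, Cox7a2l, which links complexes III and IV into supercomplexes, had 70.1, 89.6 and 96.9 TPM under LPS, 172, 192 and 213 TPM under CpG and 219, 239 and 255 TPM without stimulus. Its 3 groups did not overlap, and the difference of LPS to CpG was -1.15 as TPM and -0.37 scaled, called on both scales. Ndufa4, now placed with complex IV, differed by -0.89 as TPM and -0.10 scaled, the second not called.

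Complex V, ATP synthase, had all 16 nuclear subunits lower under LPS than under CpG as TPM, at a median of -0.97, and 8 lower and 2 higher after scaling. Its c subunit, the ring that turns with the proton flow, is encoded by 3 genes with one mature protein. Atp5g1 had 34.4, 44.8 and 49.0 TPM under LPS, 103, 123 and 139 TPM under CpG and 93.5, 109 and 128 TPM without stimulus, a log2 difference of LPS to CpG of -1.42 ± 0.07 (limma, adjusted p = 1.65e-11; -0.63 scaled). Atp5g3 had 198, 214 and 237 TPM under LPS, 329, 386 and 397 TPM under CpG and 348, 392 and 412 TPM without stimulus, a difference of -0.78 as TPM and 0.0095 scaled, the second not called. Atp5g2 had 5.49, 7.53 and 10.2 TPM under LPS and 17.7, 22.3 and 29.7 TPM under CpG, but shares reads with the near-identical gene Gm10175. With it, the values were 111, 132 and 146 TPM under LPS and 267, 309 and 321 TPM under CpG, a difference of -1.20 in place of -1.48. With copies counted, the share of c subunit transcripts that came from Atp5g3 was 52.0 to 57.4% under LPS, 44.5 to 47.4% under CpG and 42.3 to 47.2% without stimulus, with no overlap between LPS and the other groups, and a share within a library does not depend on a common scale factor.

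Atp5b, for the catalytic subunit, was the most abundant nuclear member, with 442, 500 and 542 TPM under LPS, 528, 613 and 647 TPM under CpG and 525, 599 and 687 TPM without stimulus. The difference of LPS to CpG was -0.27 ± 0.06 as TPM (limma, adjusted p = 0.00114), the nearest to 0 of the nuclear subunits, and 0.53 scaled, the highest among them. Across the 78 nuclear subunits the difference rose weakly with level (Pearson r = 0.29, Spearman rho = 0.368 with log2 mean TPM, across genes of the same libraries) and had r = 0.156 and rho = 0.0708 with transcript length.

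**Figure D2:**
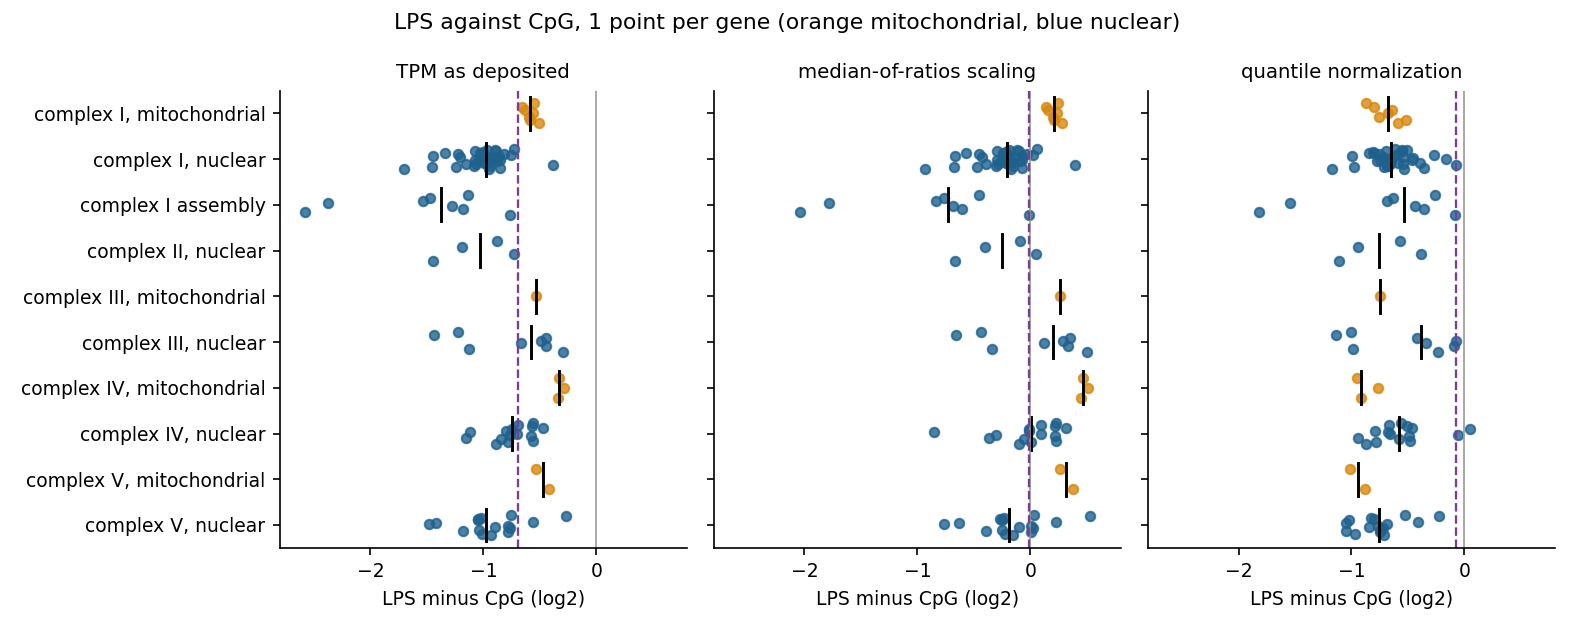
Log2 difference of LPS to CpG for each gene (horizontal axis) by complex and genome of origin, on TPM as deposited, after median-of-ratios scaling and after quantile normalization; black bars are group medians and the dashed line the median of all genes tested. The 13 mitochondrial genes lie below 0 as TPM (median -0.53) and after quantile normalization (-0.77), and above 0 after scaling (0.26), while the nuclear subunits have medians of -0.93, -0.67 and -0.16 in these settings.

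The nuclear subunit pool also changed in makeup, which a common scale factor cannot alter. Complex I took 23.5 to 24.4% of nuclear subunit TPM under LPS, 26.5 to 27.1% under CpG and 26.7 to 27.3% without stimulus. Complex II took 3.11 to 3.38% under LPS, 3.69 to 4.11% under CpG and 3.98 to 4.92% without stimulus. Both shares were lower under LPS in 7 of 7 matched sets, a set being 1 genotype label and protein. Complex IV took 30.0 to 30.8% under LPS, 26.9 to 28.6% under CpG and 27.5 to 29.1% without stimulus, and complex III 11 to 12% under LPS, 10.6 to 10.9% under CpG and 10.2 to 10.7% without stimulus, both higher under LPS in 7 of 7 sets. Complex V, at 30.4 to 31.5% under LPS, 30.1 to 31.5% under CpG and 29.5 to 30.1% without stimulus, was higher in 5 of 7 sets. All these shares leave out near-identical copies. The copies averaged 1390% of the level of Atp5g2, 557% of Ndufb4, 102% of Cox7c and 42.0% of Atp5l. Shares of the complexes with copies added are not given, and the direction for complex V may depend on them.

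**Figure D3:**
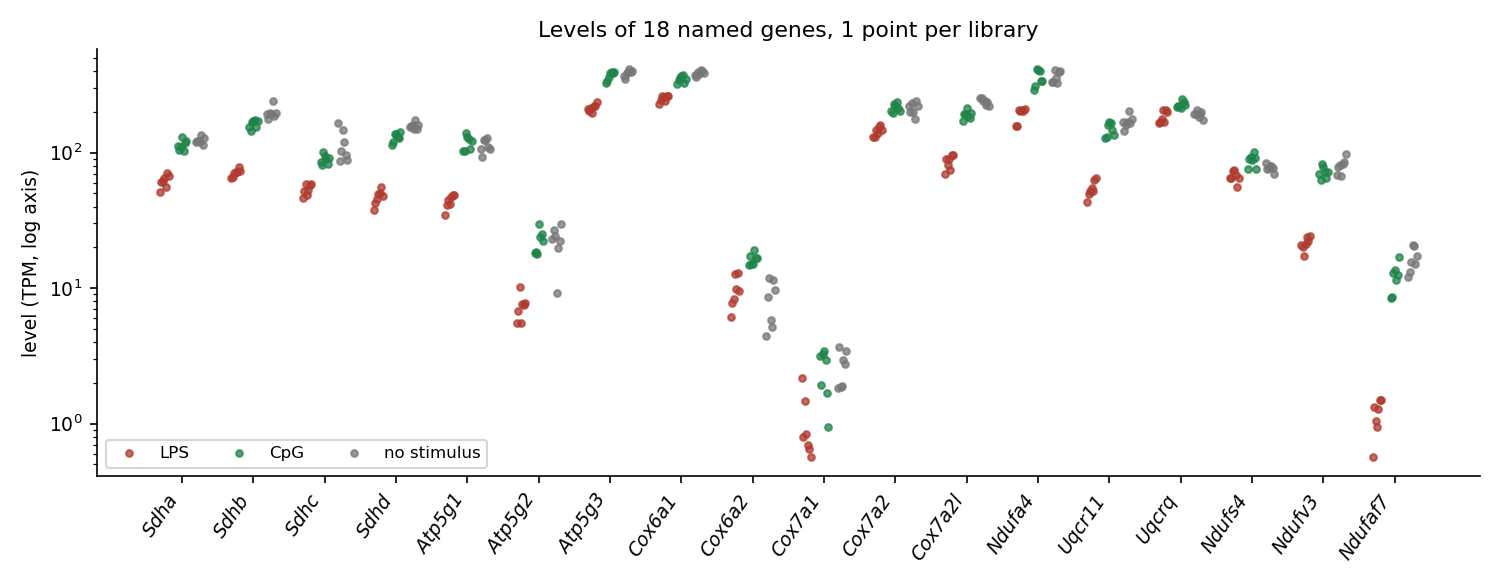
Level of 18 named genes in TPM (log axis), 1 point per library, coloured by stimulus. As TPM, Ndufv3, Ndufaf7, Sdhd, Uqcr11 and Atp5g1 are far lower under LPS than in both other groups and keep this direction after scaling, whereas the small differences of Ndufs4, Uqcrq and Cox6a1 to CpG turn to higher after scaling; Cox6a2 is highest under CpG.

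The 13 genes of mitochondrial DNA are transcribed as long precursors from both strands, with Nd6 the only protein gene on the light strand. They were lower under LPS than under CpG as TPM by less than most nuclear subunits, with 12 of 13 called, and were all called higher after scaling and all lower after quantile normalization. The complex I genes mt-Nd1 to mt-Nd6 and mt-Nd4l differed from CpG by -0.66 to -0.51 as TPM and 0.14 to 0.28 scaled. mt-Nd1, on the mitochondrial genome from 2751 to 3707, had 1714, 2017 and 2263 TPM under LPS, 2396, 2821 and 3578 TPM under CpG and 2974, 3503 and 3843 TPM without stimulus. The LPS libraries lay below all others and the other groups overlapped, with a difference of LPS to CpG of -0.55 ± 0.07 (limma, adjusted p = 7.3e-07; 0.24 scaled). mt-Nd6, on the opposite strand to the other 12, had a difference of -0.51 as TPM and 0.28 scaled, near those of the other strand.

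mt-Cytb, the catalytic subunit of complex III, had 1152, 1357 and 1573 TPM under LPS, 1532, 1845 and 2476 TPM under CpG and 1918, 2082 and 2546 TPM without stimulus, a difference of LPS to CpG of -0.53 as TPM and 0.26 scaled. The complex IV core genes differed less as TPM and more after scaling: mt-Co1 had 4878, 5156 and 5692 TPM under LPS, 5824, 6436 and 7691 TPM under CpG and 6797, 7193 and 8311 TPM without stimulus, a difference of -0.33 as TPM and 0.46 scaled. mt-Co2 had 2861, 3109 and 4687 TPM under LPS, 2721, 4473 and 6811 TPM under CpG and 3736, 5690 and 7366 TPM without stimulus, and its groups overlapped, at -0.28 ± 0.21 with LPS lower in 4 of 7 sets (limma, adjusted p = 0.207). Reads of mt-Co2 are split with the nuclear copy Gm28661, and with it the difference was -0.37 and called. mt-Co3 differed by -0.34 as TPM and 0.45 scaled, and the ATP synthase genes mt-Atp6 and mt-Atp8, which share 43 bases, by -0.53 and -0.41 as TPM and 0.26 and 0.38 scaled. Within the mitochondrial pool, without near-identical copies, complex IV took 41.8 to 48.7% under LPS, 40.1 to 45.2% under CpG and 40 to 45.2% without stimulus. Complex I took 26.8 to 30.4% under LPS, 29.8 to 32.9% under CpG and 30.1 to 32.9% without stimulus. The copies left out here averaged 33.9% of the level of mt-Co1, 31.7% of mt-Co2 and 12.4% of mt-Atp6.

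The more abundant mitochondrial genes had the smaller differences as TPM (r = 0.839, rho = 0.764 with log2 mean TPM over 13 genes, which share precursors and libraries; r = -0.0151 with length). Abundant genes in general did so too: the median difference of LPS to CpG was -0.65 as TPM over 7108 nuclear coding genes that averaged 10 TPM or more and -0.36 over 1272 that averaged 100 TPM or more, beside -0.53 for the mitochondrial genes. The part of level in the mitochondrial values was not tested further.

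The ratio of mitochondrial to nuclear subunit TPM within a library was higher under LPS. On the log2 scale it lay at 1.87 to 2.17 under LPS, median 1.98, at 1.41 to 1.89 under CpG, median 1.55, and at 1.56 to 1.91 without stimulus, median 1.74. Within matched sets it was higher with LPS than with CpG in 7 of 7, by 0.09 to 0.63 with a median of 0.41, and higher with LPS than without stimulus in 6 of 7, by -0.01 to 0.43 with a median of 0.30 (also 0.30 without the 3 libraries). With near-identical copies added to their members, among them that of mt-Co2, the difference of LPS to CpG was 0.18 to 0.54 with a median of 0.44, again positive in 7 of 7 sets, and that of LPS to no stimulus 0.07 to 0.54 with a median of 0.31, in 7 of 7. With CpG it was higher than without stimulus in 2 of 7 sets, at -0.48 to 0.21. The CpG libraries were uneven, at 1.79 and 1.89 in those labelled Bgn-/- and 1.78 in wild type with lumican, against 1.41 to 1.55 in the other 4. A common scale factor leaves this ratio unchanged, but quantile normalization, which alters abundant genes by more, put the median difference of mitochondrial genes, at -0.77, below that of the nuclear subunits, at -0.67.

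**Figure D4:**
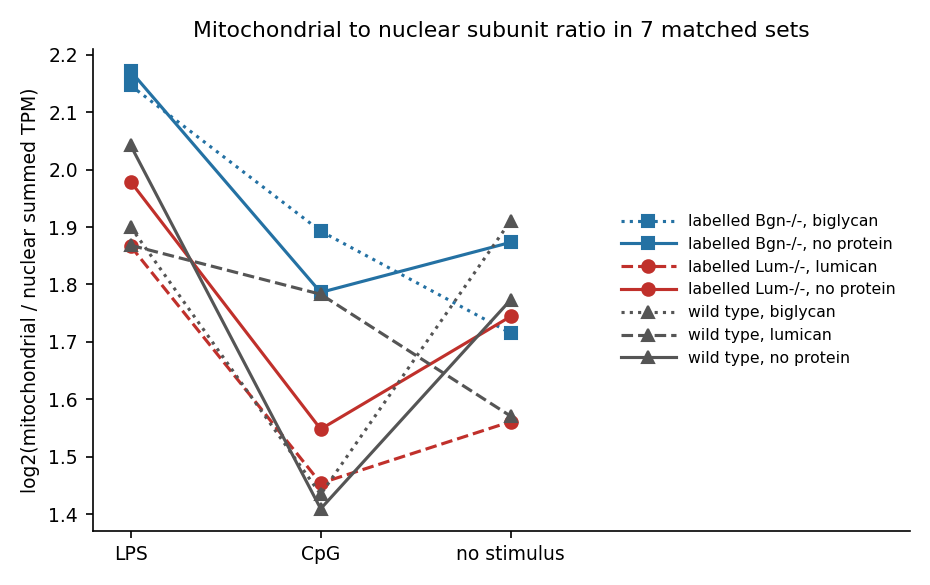
Log2 ratio of summed mitochondrial to summed nuclear subunit TPM by stimulus, 1 line per matched set of genotype label and protein. LPS points (1.87 to 2.17) lie above the CpG point of the same set in all 7 sets, by 0.09 in wild type with lumican and by up to 0.63 in wild type without protein (0.18 and 0.54 with near-identical copies added); the order of the median differences is the other way after quantile normalization.

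Against no stimulus, LPS libraries had 98 members lower and 0 higher as TPM, where 72.3% of all genes were lower and 14.1% higher. After scaling, 44 were lower and 19 higher, where 38.7% of all genes were lower and 39.3% higher. All 7 LPS values lay below all 7 unstimulated values for 77 of 87 nuclear members and 10 of 13 mitochondrial genes, and for 58.2% of all genes. Without the 3 libraries this held for 81 nuclear members, 10 mitochondrial genes and 63.8% of all genes. This comparison shares the LPS libraries with the one above, and its medians were -0.93 for the members, -1.26 for complex II, -1.44 for the assembly factors and -0.71 for the mitochondrial genes, beside -0.72 for all genes. Sdhb differed by -1.47 ± 0.05 (limma, adjusted p = 3.93e-13), Ndufs7, an iron-sulfur subunit of complex I, by -1.72, and Sdhd by -1.73, and all stayed lower after scaling, at -0.63, -0.89 and -0.90. Without the 3 libraries these were -1.41, -1.68 and -1.71 as TPM. The 2 members not called as TPM were Uqcrq, at -0.05, and Cox6a2, at 0.25. Without the 3 libraries the counts were again 98 and 0, where 71.8% of all genes were lower and 14.4% higher.

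The share of members lower with CpG lay near that of all genes. Against no stimulus, CpG libraries had 27 members lower and 3 higher, where 22.6% of all genes were lower and 15.0% higher, and the median of the members was -0.10 beside -0.05 for all genes. After scaling 16 were lower and 5 higher, where 18.6% of all genes were lower and 18.7% higher, and without the 3 libraries 23 and 3, where 18.0% were lower and 16.0% higher. Without the CpG library labelled Lum-/- that had no protein, 17 were lower. Complex II had 3 of 4 subunits lower: Sdhb at -0.28 (limma, adjusted p = 0.000536), Sdhd at -0.29 (adjusted p = 0.00194) and Sdhc at -0.33 (adjusted p = 0.0457, and 0.776 without the 3 libraries). Complex I had 10 nuclear and 5 mitochondrial genes lower, among them Ndufs7 at -0.27. Complexes III, IV and V had 0, 4 and 3 nuclear subunits lower, with Cox7a2l at -0.32 (-0.27 without the 3 libraries, adjusted p = 0.0107 by limma).

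Higher with CpG than without stimulus were Cox6a2, Uqcrq and Ndufaf6. Cox6a2 differed by 0.99 ± 0.16 and was higher in 7 of 7 sets (limma, adjusted p = 0.000236; 1.02 scaled), and by 0.62 without the 3 libraries, whose untreated and biglycan-alone values of 4.41, 5.79 and 5.20 TPM were the lowest 3 without stimulus. Uqcrq differed by 0.24 ± 0.06 (adjusted p = 0.00603; 0.29 scaled), also in 7 of 7 sets, and by 0.24 without the 3 libraries (adjusted p = 0.0299). Ndufaf6, a complex I assembly factor, differed by 0.51 ± 0.19 (adjusted p = 0.0422, and 0.188 without the 3 libraries).

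By genotype label, libraries labelled Lum-/- had slightly lower levels of many members than wild-type libraries. As TPM, 19 members were lower and 0 higher (limma, matched over 6 treatments), where 3.70% of all genes were lower and 1.64% higher, and the median of the members was -0.17 beside -0.04. The nuclear sum was lower at every stimulus as TPM: 6453 and 6555 TPM under LPS in libraries labelled Lum-/-, against 7318 to 7749 TPM in wild-type libraries, 11440 and 11694 TPM under CpG in libraries labelled Lum-/-, against 12455 to 13436 TPM in wild-type libraries, and 12728 and 12871 TPM without stimulus in libraries labelled Lum-/-, against 13657 to 13779 TPM in wild-type libraries. After scaling the sums overlapped under LPS, at 9737 and 10432 in libraries labelled Lum-/- against 10345 to 10951 in wild-type libraries, and under CpG, at 9788 and 10408 against 10311 to 11884 in wild-type libraries, and did not without stimulus, at 10201 and 10513 against 10739 to 11575 in wild-type libraries. The 19 were 10 nuclear complex I subunits, mt-Nd3, 3 subunits of complex III, Cox8a and Ndufa4 of complex IV, Atp5g1 and Atp5g3 of complex V, and Ndufaf7. Members called lower numbered 6 after scaling, where 2.34% of all genes were lower, and 10 after quantile normalization, where 2.85% were. They numbered 39 without the pair of near-identical libraries and 43 without the 3, where 7.39% and 8.52% of all genes were lower. They numbered 4 to 23 with single libraries left out, and 11 or fewer without any 1 of 12: the 5 labelled Lum-/- that were not untreated, the 5 wild-type libraries they match, and the LPS and CpG libraries labelled Bgn-/- without protein.

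Ndufa5, in the quinone module of complex I, had 20.8 and 23.9 TPM under LPS in libraries labelled Lum-/- (no protein, lumican), against 28.9 and 32.0 TPM in wild-type libraries. It had 60.3 and 56.2 TPM under CpG in libraries labelled Lum-/-, against 82.6 and 71.9 TPM in wild-type libraries, and 59.4 and 59.2 TPM without stimulus, against 71.7 and 70.3 TPM in wild-type libraries. Every value was below its wild-type match, and the difference was -0.36 ± 0.04 (adjusted p = 0.00101; -0.32 scaled; -0.37 without the 3 libraries). mt-Nd3, in the membrane part of complex I, had 734 and 705 TPM under LPS in libraries labelled Lum-/-, against 965 and 917 TPM in wild-type libraries, and 1173 and 1052 TPM under CpG, against 1531 and 1483 TPM in wild-type libraries. Its difference was -0.35 (adjusted p = 0.00947; -0.30 scaled; -0.38 without the 3 libraries), in 6 of 6 treatments. Ndufb2, Ndufa3, Ndufb5 and Uqcr10 were also lower in 6 of 6, at -0.36, -0.36, -0.22 and -0.25, and kept this sign after scaling. Mast cell markers differed along with the label, summed to 7.72 to 10.6 TPM in libraries labelled Lum-/- against 64.7 to 116 TPM in 8 of the 9 wild-type libraries. They were also low in libraries labelled Bgn-/-, at 2.72 to 8.54 TPM. The part of mast cells in the result was not tested.

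**Figure D5:**
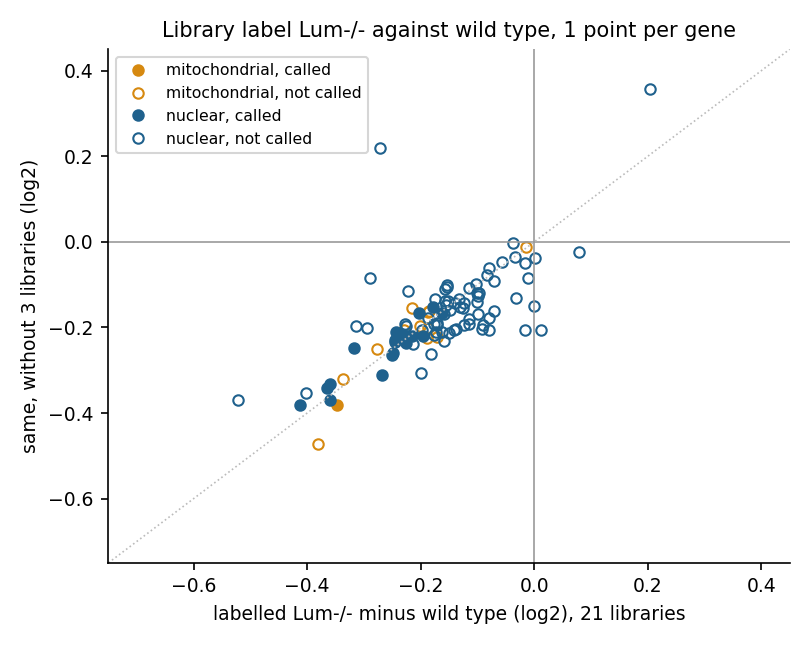
Log2 difference of libraries labelled Lum-/- to wild-type libraries for each member, over all 21 libraries (horizontal axis) and without the 3 libraries that stand apart (vertical axis); filled points passed the test over 21 libraries. The 19 filled points lie below 0 on both axes as TPM, and 6 members pass as lower after median-of-ratios scaling.

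Between libraries labelled Bgn-/- and wild type, 0 members changed (limma; 11 at an unadjusted p under 0.05), where 0.213% of all genes did. The mitochondrial genes had a median difference of 0.14. Without the 3 libraries, 4 were called higher: mt-Nd3, mt-Nd4l, mt-Nd5 and mt-Atp8, at 0.22, 0.33, 0.31 and 0.41, where 0.544% of all genes were. mt-Atp8 had 3941 and 4222 TPM under LPS in libraries labelled Bgn-/- (no protein, biglycan), against 3284 and 2979 TPM in wild-type libraries, and 5358 and 5714 TPM under CpG, against 3874 and 4031 TPM in wild-type libraries. Without stimulus it had 5981 and 4044 TPM in libraries labelled Bgn-/-, against 5437 and 4872 TPM in wild-type libraries, the 4044 TPM being that of the biglycan-alone library.

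Added protein moved no member past the test. With lumican, 0 members changed against no protein (limma; 5 at an unadjusted p under 0.05), where 0% of all genes did. The lowest adjusted p was that of Ndufc2, a complex I subunit, at -0.22 (adjusted p = 0.417), lower in 6 of 6 pairs. With biglycan, 0 changed (limma; 2 at an unadjusted p under 0.05), where 0% of all genes did, and Ndufa3 was lowest in p at -0.22 (adjusted p = 0.491). Without the 3 libraries, 0 members changed with either protein, where 0.442% of all genes did with lumican and 0.0850% with biglycan. Differences over the members, in all 21 libraries, spanned -0.30 to 0.37 with lumican and -0.23 to 0.43 with biglycan. The response to LPS over CpG was not called different from wild type in any member, neither for the label Lum-/- (0 called by limma, 3 at an unadjusted p under 0.05, 0% of all genes called) nor for the label Bgn-/- (0 called, 9 at an unadjusted p under 0.05, 0% of all genes called). The lowest p values belonged to Ndufb2, at -0.45, and Ndufv3, at -0.49.

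Genes that serve the same pathway were followed as lists, whose counts stand beside the 74.1% of all genes lower and 11.6% higher under LPS than under CpG as TPM, and 37.8% and 36.8% after scaling. Of 14 citric acid cycle genes, 12 were lower and 0 higher under LPS than under CpG as TPM (7 and 3 after scaling), at a median of -0.93 beside -0.70 for all genes. Idh2, the mitochondrial NADP-dependent isocitrate dehydrogenase, differed by -2.56 (adjusted p = 2.97e-12; -1.88 scaled), and Idh3a and Suclg2, of the NAD-dependent enzyme and of succinyl-CoA ligase, by -1.64 and -1.59. Cs, citrate synthase, was at -0.77 as TPM and 0.02 scaled. Of 15 electron carriers and nucleotide exchangers, 13 were lower and 1 higher (8 and 3 after scaling). The higher one was Cycs, cytochrome c, which carries electrons between complexes III and IV, at 0.24 ± 0.08 as TPM (limma, adjusted p = 0.00835; 1.01 scaled). Slc25a4, an ADP/ATP carrier, and Ucp2, an inner membrane carrier, were lower at -1.69 and -2.0.

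Of 34 assembly factors of other kinds, 29 were lower and 1 higher (18 and 10 after scaling), and of 78 mitochondrial ribosomal proteins, which make the 13 mitochondrial subunits, 76 were lower and 0 higher (44 and 11 after scaling), at a median of -1.03. Of 15 genes of mitochondrial DNA expression, 12 were lower and 1 higher (7 and 4 after scaling), a share lower close to that of all genes as TPM. Tfam, which packages mitochondrial DNA and starts its transcription, differed by -0.79 as TPM and -0.03 scaled, Lrpprc, which stabilizes mitochondrial mRNA, by -1.58 and -0.86, and Pnpt1, a mitochondrial RNA-degrading enzyme, by 1.08 and 1.85. Of 9 regulators of these genes, 7 were lower and 1 higher as TPM (2 and 6 after scaling). Ppargc1b, a coactivator of mitochondrial genes, was lower at -1.37 as TPM and -1.14 scaled. Myc was lower with LPS than with CpG, at -2.09, and higher with CpG than without stimulus, at 2.02. Of 4 genes around itaconate and succinate, Acod1, which makes itaconate, an inhibitor of complex II, was higher with LPS at 1.52 ± 0.12 (limma, adjusted p = 6.83e-09; 2.31 scaled), and the other 3 were lower as TPM.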

How the data were processed

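RNA was measured in 21 libraries of mouse CD11b+ peritoneal cells, made with a stranded TruSeq kit and sequenced on an Illumina HiSeq instrument, per the labels. The tools bcl2fastq 1.8.4 and kallisto 0.44.0 and the build GRCm38 are named in the submitters' processing notes; the transcript set is not given in the sources used here. The deposited table gives each transcript in TPM, which the authors normalized library by library, with no counts. Depth was therefore estimated from the steps of low TPM values, and covers counting error only.

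TPM of 89562 transcripts was summed to 23545 genes by symbol, leaving out 1350 transcripts without a gene (5350 to 7548 TPM per library). Tests were two-sided and used log2(TPM + 1) of the 11764 genes that averaged 1 TPM or more, in limma 3.58.1 (R 4.3.3; lmFit, then trended eBayes), and p-values were adjusted over all of them by Benjamini-Hochberg. A fold change on this scale understates the change of low genes. Stimuli were compared over 7 matched sets of genotype label and protein (12 residual degrees of freedom), genotype labels over 9 treatments (10), proteins within genotype and stimulus (10) and responses between genotypes by an interaction (8). Standard errors (±) come from these fits. The fits were also run on simulated data with independent noise around each gene's mean. Of 100 genes changed by 0.5 log2, they recovered 82 for LPS against CpG, 71 for Lum-/- against wild type and 81 for added lumican. The simulation held no differences between sets and no repeated library, so it cannot check the standard errors of these data. Where 2 libraries seem to be 1, both entered the main fits, and fits without them are given beside the results.

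The named genes were the 13 mitochondrial genes, Sdha to Sdhd, the c subunit genes, isoform pairs, in each complex the nuclear subunit with the largest and the smallest difference, and for other comparisons the members with the lowest p. Further members of a complex were named with their values. Members, lists and tests were chosen with earlier results of these data known. Near-identical copies were found with blastn 2.17.0 (at least 95% identity over 100 bases). Copies with over 20% of the member's level were found for 6 members. Python 3.11.15, pandas 2.3.3 and matplotlib 3.10.9 did the rest. Alternatives were the pseudocount, the filter, scaling, quantile normalization, the main transcript, robust eBayes and left-out libraries. Adding copies to a member, and scaling with the 3 libraries left out, were chosen after seeing the data. Some genes are not reported here.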

Additional observations from a re-analysis of the deposited data

How the results depend on the processing

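Scaling turned the direction of many members between LPS and CpG, while others kept theirs. After median-of-ratios scaling the members lower and higher numbered 45 and 26 (50 and 28 with the 3 libraries also left out), and against no stimulus 44 and 19 (51 and 14; 1 higher after quantile normalization). Signs turned after scaling, with and without the 3 libraries, for mt-Nd1 (0.24), mt-Nd2 (0.14), mt-Nd3 (0.16), mt-Nd4 (0.23), mt-Nd4l (0.20), mt-Nd5 (0.21), mt-Nd6 (0.28), mt-Cytb (0.26), mt-Co1 (0.46), mt-Co3 (0.45), mt-Atp6 (0.26), mt-Atp8 (0.38), Sdhc (0.052), Atp5g3 (0.0095), Cox4i1 (0.23), Cox6a1 (0.32), Cox7a2 (0.22), Cox8a (0.0071), Ndufs4 (0.40), Uqcrq (0.50) and Atp5b (0.53), and for Cox6a2 after quantile normalization (0.047). This list covers only genes named by the rule above and called as TPM, and is not a list of all members that turned. Outside it, Uqcrc1, Uqcrc2, Uqcrfs1, Uqcrb and mt-Co2 were also higher after scaling. The scaling itself, which moved the median of all genes from -0.70 to -0.01, sets these turns. Leaving out single libraries gave 99 lower and 0 higher against CpG, and 97 to 98 lower and 0 to 1 higher against no stimulus. Shares of all genes called are given above for only some of the settings in this section. Counts of members without such a share are not set against all genes.

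For CpG against no stimulus, the members lower numbered 16 after scaling (17 with the 3 libraries also left out), 9 without all libraries labelled Lum-/-, 7 without all wild-type libraries and 17 to 33 over single libraries left out, the 17 without the CpG library labelled Lum-/- that had no protein. Those higher numbered 5 with a pseudocount of 5, 5 after scaling and 5 after quantile normalization, and 2 to 4 over single libraries. The 19 members lower under the label Lum-/- became 7 without a filter on low values, 6 after scaling, 10 after quantile normalization, 39 without the pair of near-identical libraries and 43 without the 3, and 4 to 23 over single libraries. The count was 11 or less when any library labelled Lum-/- other than the untreated one was left out, or any wild-type LPS, CpG or lumican library without biglycan and other than the untreated one, or the LPS or CpG library labelled Bgn-/- without protein. Under the label Bgn-/-, 2 members changed without the pair, 4 without the 3, 3 with these left out and scaled, and 0 to 1 over single libraries. The cause was not tested. The median differences in the mitochondrial to nuclear ratio moved within 0.37 to 0.43, 0.27 to 0.30 and -0.15 to -0.08 over single libraries.

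Of the results on single genes, 2959 kept their call, or their lack of one, in an alternative, 30 lost the call and 11 gained it. Another 43 were called in the main fit and turned sign. Sign turns of genes not called in the main fit were not counted as turns. Of the counts and ratios, 485 stayed within 1.5 times and 40 did not. No value stood apart from its 7 libraries in 74 sets examined. Depth is unknown except by estimate, and limits members of a few TPM, such as Cox6b2 and Cox7a1. The fits are matched by genotype label and protein. No paired analysis by replicate number was possible because the labels give none.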
